A study of Mus musculus with 16 samples.

Results

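The organic anion and cation transporters of the mouse kidney were followed in 16 RNA-seq libraries of whole kidney from wild-type mice, 4 per group. The set was chosen by gene symbol alone: all symbols that begin with Slc22a, apart from Slc22a2, and all that begin with Slco and a digit, which gave 40 of the 23935 symbols in the table, 25 Slc22a and 15 Slco genes. The 4 groups were given PBS, cisplatin, cisplatin after nicotinamide mononucleotide (NMN), or cisplatin after nicotinamide riboside (NR), and kidneys were taken 3 days after the cisplatin. Cisplatin is a platinum drug that injures the kidney tubule, and NMN and NR are precursors of the coenzyme NAD. The labels give no dose, strain, age or sex, do not say whether the cisplatin group also received a vehicle, and do not say that each library came from its own mouse, so each p-value speaks only for library-to-library spread, some of which may be technical.

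Slc22 proteins carry organic anions, organic cations, carnitine and urate across the plasma membrane. In the proximal tubule, basolateral members such as OAT1 and OAT3 take drugs and metabolites from blood into the cell in exchange for dicarboxylates, and apical members such as URAT1 recover solutes from the tubular fluid. The Slco genes encode the organic anion transporting polypeptides, which move larger amphipathic solutes such as bile salts, steroid conjugates, thyroid hormones and prostaglandins. Several of these carriers bring nephrotoxic and renally cleared drugs into tubule cells.

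Values were deposited as TPM, a transcript abundance scaled for gene length and library total, so levels can be set side by side between genes. The depth of each library is unknown, since the listed TPM sum to between 860428 and 903678 in every library. A gene was tested when it reached at least 1 TPM in at least 4 libraries, which 12960 genes did. Among the transporters 26 passed, 19 Slc22a and 7 Slco genes, and 14 did not. Of those 14, Slc22a20, Slco6b1 and Slco6d1 were listed at 0 in all libraries, and the other 11, which include the organic cation transporter Slc22a3 and the liver carrier Slco1b2, never exceeded 2.21 TPM. Changes are given on the log2(TPM + 1) scale with their standard error (SE) from limma, which understates the change of low genes, and a gene was called when its Benjamini-Hochberg adjusted p over all tested genes was under 0.05.

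Markers of the kidney segments were present in all PBS libraries, and the markers of the proximal tubule, where most of the abundant transporters are known to be made, moved with the treatment. The summed TPM of 8 proximal tubule markers ranged from 4452 to 4993 in PBS, from 278 to 427 after cisplatin, from 3262 to 4042 under NMN and from 3063 to 3458 under NR. All 8 fell with cisplatin, to between 1.42% and 40.9% of their PBS means, with none at 0. In whole tissue, fewer cells of a type and less RNA per cell cannot be told apart, and the part of these markers in the transporter results was not tested. The share of TPM from mitochondrially encoded genes also moved, from 25.0% to 34.0% in PBS and from 15.6% to 17.6% with cisplatin. Of the other marker lists, 5 of 5 endothelial, 4 of 4 podocyte, 4 of 4 fibroblast and pericyte, 3 of 4 thick ascending limb, 2 of 3 distal convoluted tubule, 5 of 6 collecting duct, 3 of 4 liver and 3 of 3 red blood cell markers were called lower with cisplatin. Called higher were 4 of 4 tubular injury, 4 of 4 adipose, 1 of 5 macrophage (with 1 other lower), 1 of 6 collecting duct and 1 of 4 liver markers, and the 1 T and B cell marker that was tested.

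Cisplatin lowered most of the transporters. By limma 20 of the 26 were called lower and 4 higher, beside 18.6% of all tested genes called lower and 40.7% called higher. Every cisplatin library was below every PBS library for 17 of the 26 and above for 4, beside 15.6% and 35.3% of all tested genes. The median change of the 26 was -1.53, against 0.27 for all tested genes. Summed over the 40 genes, the transporters held 3399 ± 220.1 TPM in PBS, 707 ± 89.5 after cisplatin, 2586 ± 248 under NMN and 2518 ± 66.0 under NR (mean ± SD, n = 4 libraries here and below), or 20.8%, 76.1% and 74.1% of the PBS sum in the 3 cisplatin groups. Under cisplatin 18 of the 26 stood at less than 50% of their PBS mean, 10 at less than 10% and 6 at less than 5%. These shares were not counted over all tested genes. The 8 proximal tubule markers stood at 1.42% to 40.9% of their PBS means.

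**Figure D1:**
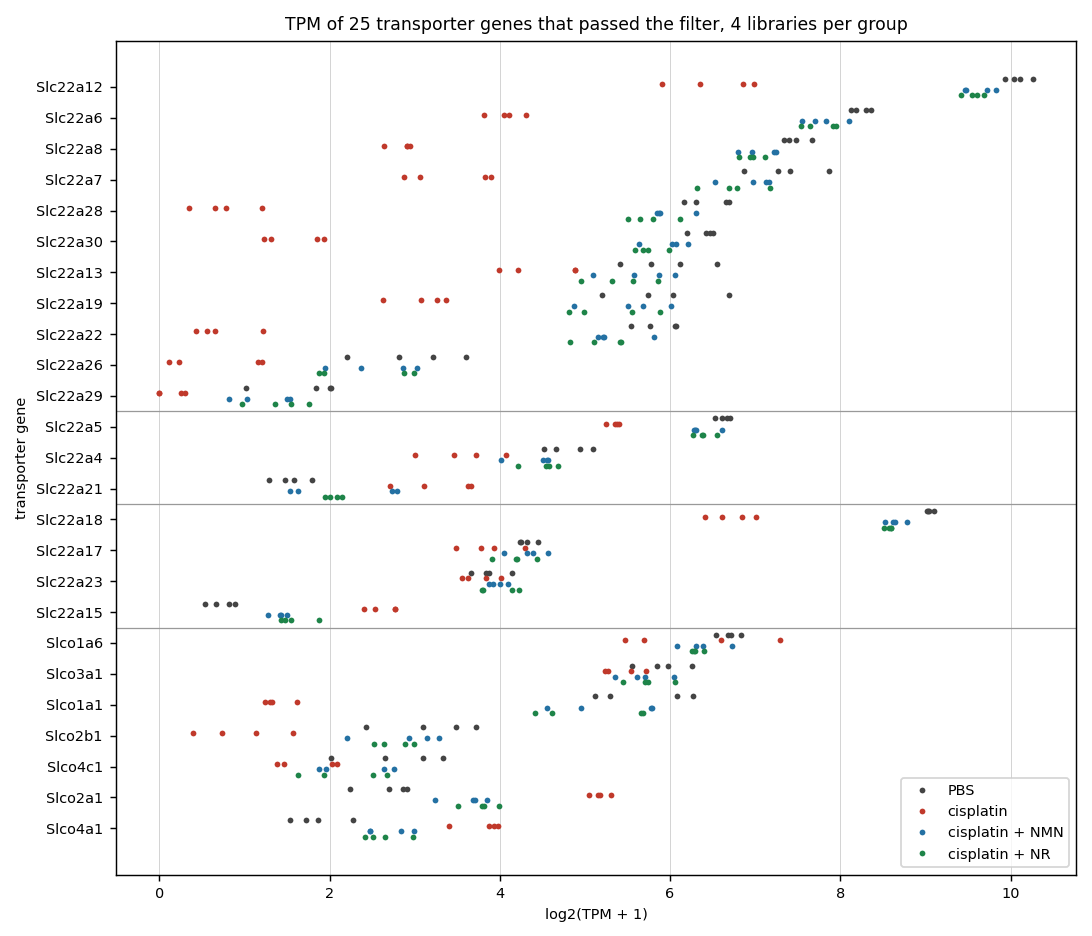
Log2(TPM + 1) of 25 transporter genes that passed the filter, one point per library, coloured by group, with horizontal lines between organic anion carriers, carnitine and zwitterion carriers, orphan or other carriers, and Slco genes. The cisplatin points lie left of the others for all 11 organic anion carriers and right of them for Slc22a15 and Slco2a1.

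The deepest fall, that of Slc22a28, was in a group of close relatives on chromosome 19, where 10 of the 40 genes lie (GRCm38 coordinates from the GENCODE annotation), and the next deepest, that of Slc22a22, was on chromosome 15. Of these 10, 8 passed the filter and all 8 were called lower, beside 18.6% of all tested genes. All 8 are organic anion carriers, and the tested carriers of that kind on other chromosomes, Slc22a7, Slc22a13 and Slc22a22, fell too. Slc22a19, Slc22a26, Slc22a27, Slc22a28, Slc22a29 and Slc22a30 follow each other on the minus strand between positions 7673061 and 8405111, and Slc22a8 and Slc22a6 stand side by side on the plus strand at chr19:8591254-8611835 and chr19:8618039-8628299. The promoter windows of Slc22a28, Slc22a30 and Slc22a29 are shown because the first and the second fell to the lowest levels of this cluster's abundant genes and the third, a close relative, was scarce in every group. Each window runs from 250 bases before to 50 after the start site in RefSeq (GRCm38.p6). Capitals mark the bases that differ from the aligned base of Slc22a30, and in Slc22a30 those that differ from Slc22a28. The windows are on the minus strand at chr19:8131933-8132232 for Slc22a28, chr19:8405056-8405355 for Slc22a30 and chr19:8218851-8219150 for Slc22a29.
Slc22a28: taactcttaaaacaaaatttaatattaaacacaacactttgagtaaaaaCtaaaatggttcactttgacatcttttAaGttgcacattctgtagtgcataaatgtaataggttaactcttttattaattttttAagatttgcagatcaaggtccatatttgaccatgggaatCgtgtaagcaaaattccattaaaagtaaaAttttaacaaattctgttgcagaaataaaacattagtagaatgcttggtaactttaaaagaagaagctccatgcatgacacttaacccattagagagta
Slc22a30: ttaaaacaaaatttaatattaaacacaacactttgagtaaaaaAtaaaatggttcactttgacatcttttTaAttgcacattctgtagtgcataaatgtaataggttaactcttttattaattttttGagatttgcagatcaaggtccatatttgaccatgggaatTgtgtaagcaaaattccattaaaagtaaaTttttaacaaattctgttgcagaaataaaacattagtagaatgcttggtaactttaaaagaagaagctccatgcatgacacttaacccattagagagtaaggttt
Slc22a29: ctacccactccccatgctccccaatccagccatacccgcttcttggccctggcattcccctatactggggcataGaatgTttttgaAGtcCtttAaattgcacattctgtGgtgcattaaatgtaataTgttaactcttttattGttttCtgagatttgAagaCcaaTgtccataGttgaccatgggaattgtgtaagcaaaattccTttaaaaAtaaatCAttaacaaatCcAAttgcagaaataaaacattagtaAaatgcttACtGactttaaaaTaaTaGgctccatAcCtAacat
The windows of Slc22a28 and Slc22a30 were 98.0% identical over 294 aligned bases, with 6 differing bases, and those of Slc22a29 and Slc22a30 86.3% over 227, with 31. Bases with no aligned counterpart are also in lower case. In the Slc22a29 window these are the first 71 bases, those after base 299 and any opposite a gap. In Slc22a28 they are the first 6 bases, and in Slc22a30 those after base 294. Motifs were searched on both strands in the 34 transporters with a window. None held the HNF4 repeat of AGGTCA with 1 base between copies, or the HNF4 variant CAAAGTCCA, which stand in 0.0481% and 0.555% of 27025 genes. The AP-1 motif TGANTCA stood in 2 of the 34, Slco1a5 and Slco2b1, beside 8.97% of genes. These are matches of letters in one window per start site, not measured binding.

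The organic anion carriers fell together: all 11 that passed the filter, of 13, were called lower with cisplatin. Their summed level went from 2105 ± 219.6 TPM in PBS to 162 ± 45.4 with cisplatin, 7.69% of the PBS level. Slc22a6 (OAT1), the basolateral exchanger that takes para-aminohippurate and many drugs from blood, was at 316, 278, 291 and 327 TPM in PBS libraries 1 to 4, 15.6, 18.8, 13.1 and 16.2 after cisplatin, 227, 207, 186 and 274 under NMN and 241, 199, 184 and 245 under NR. The highest cisplatin library was far below every other library, and both precursor groups lay wholly under PBS. It fell with cisplatin by 4.17 on the log2 scale (SE 0.13, adjusted p = 3.69e-14), to 5.26% of the PBS mean. Its basolateral neighbour Slc22a8 (OAT3), which carries a broad range of anionic drugs and uremic solutes, was at 161, 203, 178 and 168 TPM in PBS, 6.72, 5.24, 6.49 and 6.52 after cisplatin, 124, 150.1, 110.4 and 149 under NMN and 121, 137, 111 and 125 under NR. PBS was highest and cisplatin lowest, with the precursor groups between them and overlapping only each other. The fall was 4.62 (SE 0.12, adjusted p = 2.55e-15). Slc22a7 (OAT2), a carrier of cyclic nucleotides and other anions at chr17:46432183-46438457, was at 168, 116, 233 and 154 TPM in PBS, 6.35, 13.2, 7.33 and 13.9 after cisplatin, 139, 91.4, 142 and 125 under NMN and 109.7, 78.7, 143 and 102 under NR. Here PBS and both precursor groups overlapped, while cisplatin lay apart from all of them. It fell by 3.94 (SE 0.25, adjusted p = 4.84e-10).

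Among the apical urate and anion exchangers, Slc22a12 (URAT1, which recovers urate from the tubular fluid; chr19:6535845-6543032) was the most abundant transporter of the set. Its level was 1107, 980.2, 1226 and 1049 TPM in PBS, 58.9, 126, 80.9 and 115 after cisplatin, 842, 706, 713 and 908 under NMN and 827, 684, 747 and 777 under NR. It fell by 3.56 with cisplatin (SE 0.18, adjusted p = 1.33e-11), and its highest cisplatin library held 11.6% of the PBS mean. Slc22a12 overlaps Nrxn2 on the other strand, and the strand setting of the counting is not given in the sources used here. Slc22a13 (OAT10, known in rat and human as an exchanger for urate and nicotinate; chr9:119192974-119209098) was at 53.7, 41.6, 92.5 and 68.2 TPM in PBS, 14.8, 28.4, 17.5 and 28.6 after cisplatin, 46.8, 33.2, 65.8 and 57.7 under NMN and 38.8, 30.1, 57.2 and 46.3 under NR. Its cisplatin libraries stayed under all others, at 34.9% of the PBS mean, the highest share among the organic anion carriers. The change was -1.47 (SE 0.27, adjusted p = 1.70e-04); the gene lies inside Slc22a14 on the same strand, so reads in the shared part could be credited to either. Slc22a19 (OAT5), an apical carrier of steroid sulfates and dicarboxylates, was at 52.5, 35.8, 102 and 64.5 TPM in PBS, 5.18, 9.37, 7.41 and 8.62 after cisplatin, 44.5, 28.2, 63.4 and 50.4 under NMN and 30.8, 27, 58.1 and 45.9 under NR. The PBS libraries spread widely but none came near the cisplatin ones, and the gene fell by 2.83 (SE 0.30, adjusted p = 4.14e-07).

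Slc22a22 and the chromosome 19 relatives Slc22a28 and Slc22a30 were close to lost. Slc22a22, a mouse carrier of prostaglandins (OAT-PG), was at 45.6, 53.3, 65.7 and 66.1 TPM in PBS, 0.47, 0.57, 1.33 and 0.35 after cisplatin, 34.7, 36.2, 36.3 and 55.2 under NMN and 27.4, 33.6, 41.8 and 41.5 under NR. It fell by 5.14 (SE 0.20, adjusted p = 3.46e-13), to 1.18% of the PBS mean. Slc22a28 was at 77.9, 70.6, 100.3 and 102 TPM in PBS, 0.27, 0.57, 1.31 and 0.72 after cisplatin, 57.6, 56.7, 57.8 and 78 under NMN and 49.3, 44.3, 54.8 and 68.6 under NR. This was the deepest fall of the 26, 5.71 (SE 0.18, adjusted p = 4.21e-14), and left 0.818% of the PBS mean. Slc22a30 was at 87.8, 72.3, 90.2 and 84.7 TPM in PBS, 1.49, 2.84, 2.6 and 1.35 after cisplatin, 66.2, 48.5, 64.1 and 73.2 under NMN and 50.3, 47.1, 52.4 and 62.7 under NR. The pattern over groups matched that of Slc22a28, with a fall of 4.82 (SE 0.17, adjusted p = 9.62e-14). Their coding sequences are 98.8% identical, with one run of 431 identical bases, so how reads were divided between them is uncertain. Reads that match both could also have been dropped, and the sum of the 2 genes would then lack them. Their sum, which does not depend on the division between them, went from 171 ± 21.9 TPM in PBS to 2.79 ± 1.04 after cisplatin. It was 125.5 ± 19 under NMN and 107 ± 17.2 under NR.

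The lower members of the same cluster moved the same way. Slc22a26 was at 6.05, 3.61, 11.2 and 8.27 TPM in PBS, 0.17, 1.23, 0.08 and 1.3 after cisplatin, 4.18, 2.87, 7.13 and 6.29 under NMN and 2.81, 2.67, 6.36 and 6.98 under NR, and it fell by 2.29 (SE 0.36, adjusted p = 2.61e-05). Slc22a29 was at 1.03, 3.04, 2.58 and 3.02 TPM in PBS, 0.19, 0.23, 0 and 0 after cisplatin, 1.05, 0.76, 1.91 and 1.82 under NMN and 0.96, 1.93, 1.56 and 2.38 under NR. Cisplatin libraries 3 and 4 were listed at 0, and the gene was called lower (log2 change -1.58, SE 0.25, adjusted p = 2.28e-05). Slc22a29 shares 97.3% of its coding sequence with Slc22a27, which reached no more than 0.23 TPM in any library, and 92.4% with Slc22a30, so its few reads are uncertain.

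**Figure D2:**
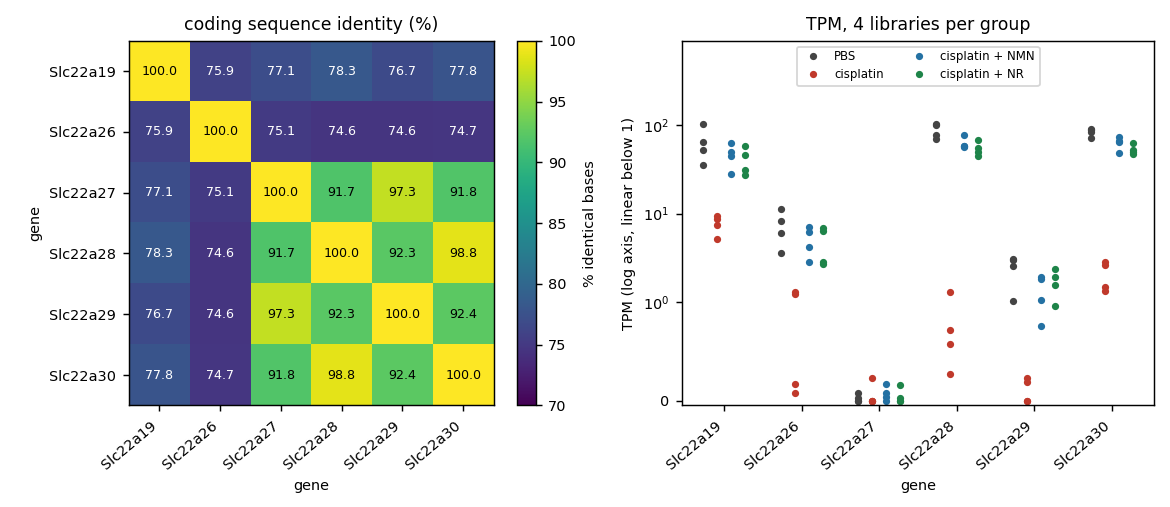
Left, percent of identical bases between coding sequences of the 6 clustered chromosome 19 genes; right, TPM of the same genes in each library on an axis that is logarithmic above 1 and linear below it. Slc22a28 and Slc22a30 are 98.8% identical and share one pattern over the groups, while Slc22a27 stays under 1 TPM in every library.

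The carnitine carriers split within one stretch of chromosome 11. Slc22a5 (OCTN2, the apical carnitine carrier; chr11:53864542-53891660) and Slc22a4 (OCTN1, a carrier of ergothioneine; chr11:53983123-54028090) fell, and Slc22a21 (OCTN3, a mouse carnitine carrier; chr11:53949965-53980332), which lies between them on the same strand, rose. Slc22a5 was at 91.1, 96.9, 101 and 103 TPM in PBS, 39.9, 41.3, 36.9 and 40.5 after cisplatin, 77.8, 76.7, 77.4 and 97.1 under NMN and 81.7, 82.8, 75.9 and 92.5 under NR. Its cisplatin libraries were tightly grouped at about 40.4% of the PBS mean, and the fall was 1.29 (SE 0.10, adjusted p = 3.94e-09). Slc22a4 was at 21.9, 24.3, 33.2 and 29.8 TPM in PBS, 12.2, 15.9, 7.04 and 10 after cisplatin, 22.5, 15.1, 22.6 and 21.8 under NMN and 17.6, 22.3, 23 and 24.6 under NR. It fell by 1.24 (SE 0.20, adjusted p = 4.04e-05), and NMN library 2 lay within the cisplatin range. Slc22a21 was at 2.46, 1.79, 1.45 and 2 TPM in PBS, 11.7, 11.4, 7.62 and 5.54 after cisplatin, 1.9, 5.66, 5.94 and 2.09 under NMN and 2.85, 3.03, 3.44 and 3.26 under NR. All cisplatin libraries were above all PBS libraries, while the NMN libraries split into 2 near PBS and 2 near the lower cisplatin libraries. The rise was 1.74 (SE 0.27, adjusted p = 2.76e-05), 4.70-fold on the TPM means. The coding sequences of Slc22a5 and Slc22a21 are 90.2% identical, with a longest identical run of 157 bases, so a part of their reads could be shared.

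**Figure D3:**
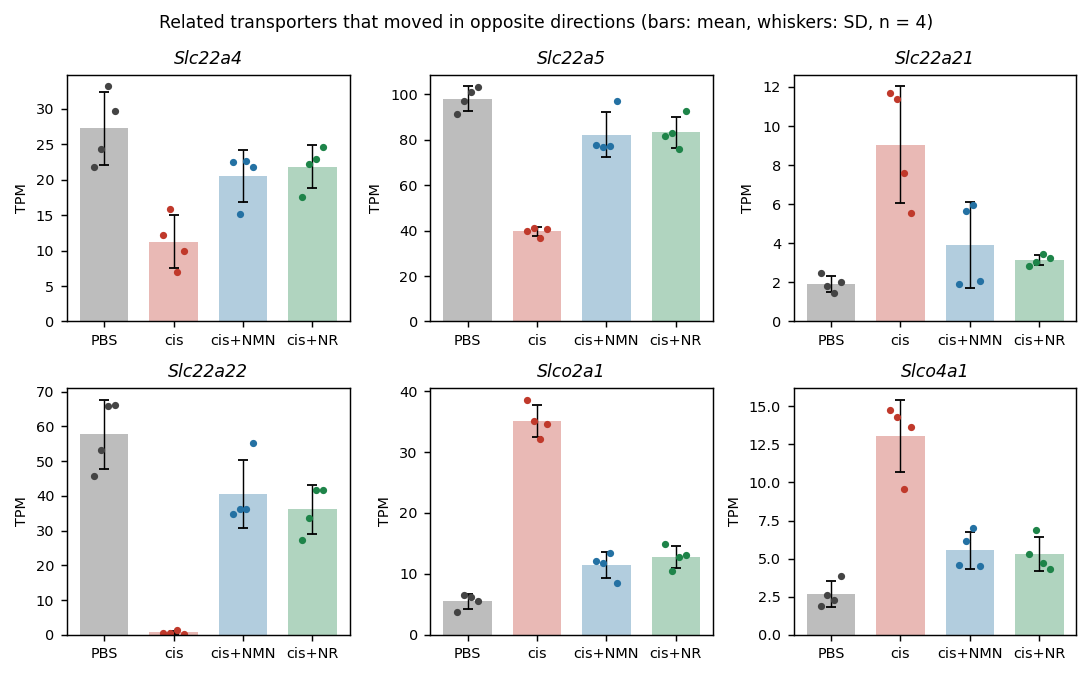
TPM of the carnitine and ergothioneine carriers Slc22a4, Slc22a5 and Slc22a21 and of Slc22a22, Slco2a1 and Slco4a1 in each group; bars are means, whiskers SD over 4 libraries and points single libraries, with each axis starting at 0. Slc22a21, Slco2a1 and Slco4a1 are highest with cisplatin, and the other 3 genes are lowest there.

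The remaining Slc22 genes had mixed directions. Slc22a18, an imprinted gene of distal chromosome 7 (chr7:143473736-143499334), was the second most abundant transporter at 527, 517, 546 and 523 TPM in PBS, 83.8, 128, 96.5 and 114 after cisplatin, 397, 394, 368 and 440.4 under NMN and 386, 386, 364 and 378 under NR. Its PBS libraries differed little and lay wholly above both precursor groups, and the fall with cisplatin was 2.33 (SE 0.11, adjusted p = 4.78e-12). Slc22a15, known in human as a carrier of zwitterions such as ergothioneine, was at 0.76, 0.59, 0.45 and 0.85 TPM in PBS, 4.29, 5.81, 4.81 and 5.8 after cisplatin, 1.69, 1.43, 1.83 and 1.68 under NMN and 2.66, 1.78, 1.7 and 1.92 under NR. No 2 of the PBS, precursor and cisplatin ranges met, and the rise was 1.89 (SE 0.16, adjusted p = 1.20e-08), 7.81-fold on the TPM means. Slc22a17, known as a receptor for lipocalin 2, was at 17.8, 18, 20.8 and 19.1 TPM in PBS, 18.6, 12.7, 10.2 and 14.2 after cisplatin, 22.7, 20, 19 and 15.6 under NMN and 14, 17.5, 20.7 and 17.3 under NR. Cisplatin library 1 lay within the PBS range and the other 3 below it; the call (log2 change -0.44, SE 0.16, adjusted p = 0.0269) was lost without PBS library 3 or 4 or cisplatin library 2 or 3 (adjusted p = 0.067, 0.0503, 0.0631 and 0.104). Slc22a23, an orphan, was at 13.4, 11.6, 13.7 and 16.7 TPM in PBS, 13.3, 15.2, 11.4 and 10.8 after cisplatin, 13.7, 15.1, 14.1 and 16.1 under NMN and 16.6, 12.8, 13 and 17.7 under NR. All 4 groups overlapped and it was not called (log2 change -0.12, 95% interval -0.43 to 0.19), although median-of-ratios scaling, which takes out the 0.27 median shift of all genes, gave a called change of -0.41. Quantile normalization also gave a called change for Slc22a23, of -0.45 (adjusted p = 0.013).

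The 7 tested Slco genes also divided, with 4 lower, 2 higher and 1 not called under cisplatin. Slco1a1 (Oatp1a1, an apical carrier of steroid conjugates in mouse proximal tubule; chr6:141907282-141946962) was at 76.4, 38.3, 33.8 and 66.7 TPM in PBS, 1.47, 2.06, 1.37 and 1.5 after cisplatin, 53.9, 29.9, 22.5 and 54.2 under NMN and 50.3, 23.5, 20.4 and 49.7 under NR. In PBS and both precursor groups libraries 1 and 4 were well above libraries 2 and 3, and the cisplatin libraries were all low. It fell by 4.32 (SE 0.34, adjusted p = 6.56e-09), to 2.97% of the PBS mean. Slco1a6 (Oatp1a6, a kidney member of the same chromosome 6 cluster; chr6:142085761-142208521), whose coding sequence is 84.2% identical to that of Slco1a1, was at 101, 92.4, 104 and 113 TPM in PBS, 43.5, 50.6, 156 and 96.2 after cisplatin, 66.9, 78.3, 82.9 and 105 under NMN and 77.3, 83.2, 75.6 and 77 under NR. Cisplatin library 3 was the highest of all 16 and cisplatin library 1 the lowest, so the group straddled the others. It was not called (log2 change -0.43, 95% interval -1.01 to 0.15, adjusted p = 0.19). Without cisplatin library 3 the change was -0.77 and called (adjusted p = 0.00371). With all libraries kept, median-of-ratios scaling gave -0.74, also called (adjusted p = 0.04999). Slco2b1, a broadly expressed carrier of steroid sulfates, was at 4.39, 12.2, 10.2 and 7.57 TPM in PBS, 1.97, 0.32, 0.67 and 1.19 after cisplatin, 3.63, 8.73, 6.62 and 7.87 under NMN and 4.77, 6.98, 6.4 and 5.24 under NR, and it fell by 2.23 (SE 0.29, adjusted p = 3.55e-06). Slco4c1, a basolateral carrier of digoxin and thyroid hormone known from human and rat, was at 5.27, 3.05, 9.04 and 7.58 TPM in PBS, 1.6, 3.09, 1.76 and 3.24 after cisplatin, 2.88, 2.68, 5.22 and 5.79 under NMN and 2.83, 2.09, 4.68 and 5.39 under NR. Its PBS and cisplatin ranges overlapped slightly, and the fall was 1.03 (SE 0.30, adjusted p = 0.00705).

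Slco3a1, known in human as a carrier of prostaglandins and thyroxine, was at 56.4, 45.8, 62 and 75.6 TPM in PBS, 36.6, 45.7, 37.6 and 51.5 after cisplatin, 47.7, 40, 51.4 and 65.2 under NMN and 51, 42.8, 52.5 and 65.9 under NR. The groups overlapped, and the call with cisplatin (log2 change -0.47, SE 0.17, adjusted p = 0.028) was lost without PBS library 3 or 4 or cisplatin library 1 or 3 (adjusted p = 0.0585, 0.107, 0.083 and 0.0741). With array weights the call was lost too (adjusted p = 0.0584). The 2 that rose were Slco2a1 (chr9:102988712-103096002), the prostaglandin transporter, and Slco4a1 (chr2:180456245-180474867), a thyroid hormone carrier in human. Slco2a1 was at 3.74, 6.51, 6.26 and 5.48 TPM in PBS, 38.6, 35.1, 32.2 and 34.6 after cisplatin, 12.1, 11.8, 13.4 and 8.46 under NMN and 14.9, 10.4, 12.8 and 13 under NR. Cisplatin lay far above, PBS at the bottom and the precursor groups between, with no overlap of either with PBS or cisplatin. The rise was 2.49 (SE 0.16, adjusted p = 4.67e-10), 6.39-fold on the TPM means. Slco2a1 and Slc22a22, both carriers of prostaglandins, thus went in opposite directions. Slco4a1 was at 1.91, 2.64, 2.3 and 3.83 TPM in PBS, 14.7, 14.3, 9.57 and 13.7 after cisplatin, 4.55, 6.17, 6.98 and 4.54 under NMN and 5.28, 6.89, 4.69 and 4.34 under NR. It was arranged like Slco2a1, and the rise was 1.95 (SE 0.19, adjusted p = 1.01e-07).

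With either precursor most transporters stood above cisplatin alone. With NMN 18 of the 26 were called higher and 4 lower than with cisplatin alone, beside 15.1% and 34% of all tested genes. With NR it was 17 higher and 4 lower, beside 14.4% and 32.2%. The libraries did not overlap for 16 higher and 3 lower with NMN, beside 13.4% and 30.9% of all tested genes, and for 17 higher and 4 lower with NR, beside 12.7% and 29.1%. The 11 organic anion carriers were higher than cisplatin with both precursors, by a median of 3.53 with NMN and 3.33 with NR on the log2 scale, and the 4 genes that rose with cisplatin were lower with both. Slc22a8 was higher by 4.21 with NMN (SE 0.12, adjusted p = 1.88e-14) and by 4.11 with NR (SE 0.12, adjusted p = 2.85e-14). Slc22a28 was higher by 5.23 with NMN (SE 0.18, adjusted p = 2.97e-13) and by 5.02 with NR (SE 0.18, adjusted p = 5.06e-13). The change of Slco2a1 was -1.55 with NMN (SE 0.16, adjusted p = 6.07e-07) and -1.40 with NR (SE 0.16, adjusted p = 2.57e-06). Slc22a23, Slco1a6, Slco3a1 and Slco4c1 were not called with NMN, nor with NR, where Slc22a17 was not called either. With median-of-ratios scaling Slc22a23 and Slco3a1 were called higher with both precursors (0.44 and 0.48 with NMN, 0.42 and 0.51 with NR) and Slc22a17 with NR (0.52, adjusted p = 0.00899), and quantile normalization made the same 5 calls. With the replicate number as a block Slco4c1 was called higher with NMN (0.57, adjusted p = 0.0493) and Slco3a1 with NR (0.30, adjusted p = 0.0428). Without mitochondrially encoded genes Slc22a23, Slco3a1 and Slc22a17 were called with NR (adjusted p = 0.0476, 0.0415 and 0.0117), and Slc22a17 also without cisplatin library 1 (0.46, adjusted p = 0.0268). The call of Slc22a17 with NMN (0.46, adjusted p = 0.0262) was lost without cisplatin library 2 or 3 or NMN library 1 or 2 (adjusted p from 0.0571 to 0.0974), and with only the groups compared (adjusted p = 0.0573). Both comparisons share the cisplatin libraries. All 8 proximal tubule, 5 of 5 endothelial and 3 of 3 red blood cell markers were also called higher in both, and 4 of 4 tubular injury markers lower. Adipose markers were called lower with NMN for 4 of 4 and with NR for 0 of 4, and none was called between NMN and NR. The mitochondrially encoded share of TPM was 22.7% to 28.3% under NMN and 22.1% to 30.3% under NR, above all cisplatin libraries. The part of these values in the transporter results was not tested.

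Against PBS most of the transporters that fell with cisplatin had lower means under either precursor. The 20 genes that fell with cisplatin stood at 57.3% to 102% of their PBS means with NMN (median 74.9%) and 60.1% to 98.4% with NR (median 68.7%), and 19 of the 20 had means below PBS in both groups. These 20 genes were picked by a comparison with the same PBS libraries, which favours genes with high PBS values. The same count was not made over all genes that fell. Few of the differences from PBS passed the test. With NMN 2 of 26 were called lower and 3 higher, beside 0.116% and 5.89% of all tested genes, and 7 of the 21 not called had an unadjusted p under 0.05. With NR 6 were called lower and 3 higher, beside 1.21% and 8.79%. With NMN 5 lay wholly below PBS and 3 wholly above, beside 1.46% and 8.77% of all tested genes, and with NR 8 below and 4 above, beside 2.99% and 11.8%. The median change of the 26 was -0.40 with NMN and -0.45 with NR, against 0.04 and 0.06 for all genes. These comparisons share the PBS libraries.

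**Figure D4:**
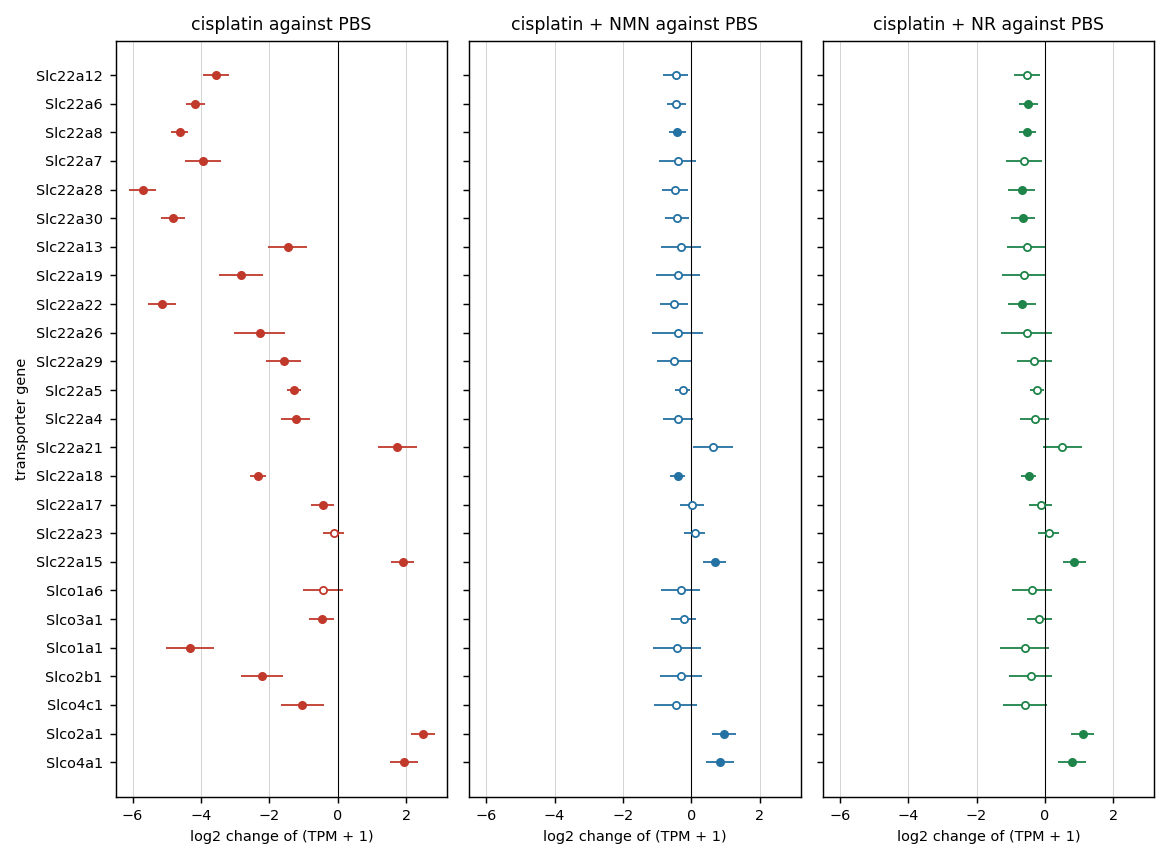
Change from PBS on the log2(TPM + 1) scale with 95% limma intervals for 25 of the transporters, in one panel for each group that received cisplatin; filled points were called at adjusted p under 0.05. Changes reach from -5.71 to 2.49 with cisplatin and lie between -0.68 and 1.1 in both precursor panels.

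Slc22a8 and Slc22a18 were called lower than PBS with NMN and with NR. For Slc22a8 the changes were -0.42 with NMN (SE 0.12, adjusted p = 0.0473) and -0.52 with NR (SE 0.12, adjusted p = 0.00822). For Slc22a18 they were -0.40 (SE 0.11, adjusted p = 0.0321) and -0.48 (SE 0.11, adjusted p = 0.00687). Both NMN calls were lost without any one of the PBS libraries or without NMN library 1 or 3, with adjusted p up to 0.211 for Slc22a8 and 0.127 for Slc22a18, and that of Slc22a18 was also lost without NMN library 2. Without the trend and robust options both were lost (adjusted p = 0.0803 and 0.0744), that of Slc22a8 also with quantile normalization, with no minimum and with only the groups compared (adjusted p from 0.062 to 0.0969), and that of Slc22a18 with median-of-ratios scaling (adjusted p = 0.0511). Both NR calls stood in every setting in which single transporters were followed. These settings did not include the one with PBS 1, cisplatin 1 and cisplatin 3 left out together. Called lower with NR alone of the precursors were Slc22a6 (-0.48, adjusted p = 0.0249), Slc22a22 (-0.67, adjusted p = 0.038), Slc22a28 (-0.68, adjusted p = 0.0223) and Slc22a30 (-0.65, adjusted p = 0.016). Their changes with NMN were -0.45, -0.51, -0.48 and -0.42 and were not called (adjusted p = 0.0563, 0.179, 0.176 and 0.196), and none of the 4 was called between NMN and NR. For Slc22a6 the NMN change was called with the replicate number as a block (-0.45, adjusted p = 0.0148), with a minimum of 5 TPM (adjusted p = 0.0428), with array weights (adjusted p = 0.0399) and without NMN library 4 (adjusted p = 0.0141). The calls of Slc22a6, Slc22a22 and Slc22a28 with NR were each lost without one of several libraries, PBS library 4 and NR library 2 among them for all 3, and that of Slc22a30 without NR library 2 (adjusted p = 0.0505). The NR call of Slc22a6 was also lost with quantile normalization (adjusted p = 0.0523). With a pseudocount of 0.1 those of Slc22a22 and Slc22a28 were lost (adjusted p = 0.144 and 0.147), and that of Slc22a22 also without the trend and robust options and with no minimum (adjusted p = 0.0502 and 0.0644). Slc22a12 lay wholly below PBS with NMN (-0.46, adjusted p = 0.165) and with NR (-0.52, adjusted p = 0.0723) but was not called. With only the groups compared Slc22a12 was called lower with both (adjusted p = 0.0305 and 0.0103). Quantile normalization called it lower with NR (adjusted p = 0.0453). Of the 8 proximal tubule markers, 1 was called lower than PBS with NMN and 4 with NR.

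Slc22a15, Slco2a1 and Slco4a1 stayed above PBS with both precursors. Slc22a15 was higher by 0.68 with NMN (SE 0.16, adjusted p = 0.0125) and by 0.85 with NR (SE 0.16, adjusted p = 0.00138). Slco2a1 was higher by 0.94 (SE 0.16, adjusted p = 0.00101) and 1.1 (SE 0.16, adjusted p = 1.56e-04), and Slco4a1 by 0.85 (SE 0.19, adjusted p = 0.0103) and 0.79 (SE 0.19, adjusted p = 0.0121). Without NMN library 3 the NMN calls of Slc22a15 and Slco4a1 were lost (adjusted p = 0.0524 and 0.0543), and that of Slc22a15 also with quantile normalization and with only the groups compared (adjusted p = 0.0628 and 0.0521). Slc22a21, the other gene that rose with cisplatin, was not called against PBS with NMN (0.64, 95% interval 0.06 to 1.21) or NR (0.51, 95% interval -0.07 to 1.09).

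NMN and NR were not told apart by any transporter. None of the 26 was called between them, beside 0% of all tested genes, and limma gave 0 of the 26 an unadjusted p under 0.05. For none of the 26 did the libraries of one precursor lie wholly above or below the other, beside 0.64% of genes wholly higher with NMN and 0.995% wholly lower. The highest difference of NMN from NR was 0.23, for Slc22a30, and the 95% intervals of the 26 reached from -0.70 to 0.88. Of the 20 genes that fell with cisplatin, 15 had a lower mean with NR than with NMN, a count with no test. The widest interval bound, 0.88 for both Slco1a1 and Slc22a26, leaves room for a difference that these 4 libraries per group did not resolve.

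**Figure D5:**
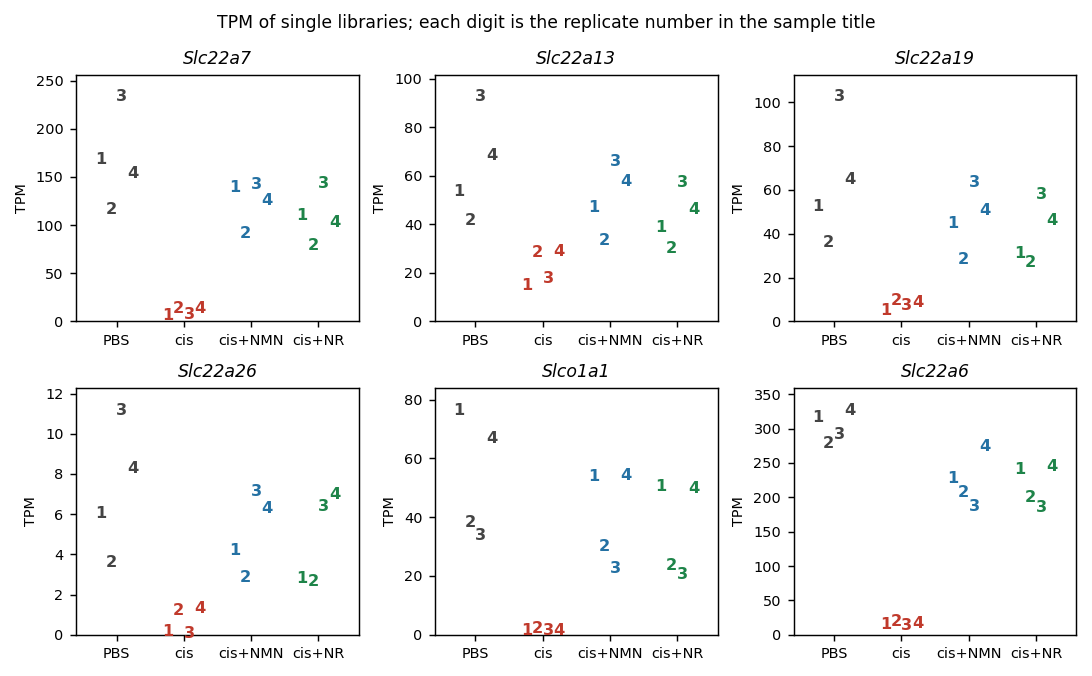
TPM of Slc22a7, Slc22a13, Slc22a19, Slc22a26, Slco1a1 and Slc22a6 by group, each digit being the library's number in its title. In PBS and in both precursor groups Slc22a7, Slc22a13 and Slc22a19 are lowest in library 2 and highest in library 3, and Slco1a1 is higher in libraries 1 and 4 than in 2 and 3.

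For some transporters the spread within groups ran along the library numbers. Of 25 transporters with a group mean of at least 5 TPM, the same number was lowest in the PBS, NMN and NR groups for 12, and the same number was highest in all 3 for 10. Both held for Slc22a7, Slc22a13 and Slc22a19, which were lowest in library 2 and highest in library 3, for Slc22a28 and Slco3a1, which were lowest in library 2 and highest in library 4, and for Slco2b1, which was lowest in library 1 and highest in library 2. These counts were not made over all genes, and transporters that move together are not independent of each other. The labels do not say what libraries of one number share.

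The wider transport system of these cells was read from a list of 36 tested genes: exporters, the gradient that drives anion exchange, scaffolds, transcription factors and carnitine or bile acid partners. Cisplatin lowered 22 and raised 4 of them, beside 18.6% and 40.7% of all tested genes. NMN raised 22 and lowered 3 against cisplatin, beside 15.1% and 34% of all tested genes. NR did the same by count, beside 14.4% and 32.2%. All 7 gradient genes fell, among them Slc13a3, which brings in the dicarboxylates that OAT1 and OAT3 exchange, from 251 ± 16 to 21.5 ± 1.35 TPM (log2 change -3.49, adjusted p = 3.47e-14). Of 13 exporters 7 fell and 3 rose. Slc47a1 (MATE1), the apical exporter of organic cations, went from 285 ± 16 to 69.5 ± 5.21 TPM (log2 change -2.02, adjusted p = 2.56e-12), while the ATP-driven exporters Abcb1b (P-glycoprotein) and Abcc4 (MRP4) rose from 3.14 ± 1.31 to 24.5 ± 4.36 and from 6.52 ± 1.2 to 22 ± 4.65 TPM (log2 changes 2.66 and 1.60, adjusted p = 1.85e-08 and 1.07e-07). Of 4 scaffolds 3 fell, among them Pdzk1, which anchors apical carriers such as URAT1, from 554 ± 84.1 to 152 ± 18.5 TPM (log2 change -1.86, adjusted p = 4.72e-10). Of 9 transcription factors 2 fell, 1 rose and 6 were not called. Hnf4a, the one of them that fell most, went from 173 ± 21.8 to 39.5 ± 9.84 TPM (log2 change -2.12, adjusted p = 1.57e-09). Against PBS, 1 of the 36 was called higher and 1 lower with NMN, beside 5.89% and 0.116% of all tested genes. The lower was Slc47a1 (-0.33, adjusted p = 0.0369). With NR 3 of the 36 were called higher and 5 lower, beside 8.79% and 1.21%. All 3 of the carnitine and bile acid partners that were tested fell with cisplatin, and none of the 36 was called between NMN and NR.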

How the data were processed

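One table of TPM values with 2 decimals was deposited by the authors for 16 whole-kidney libraries, made from total RNA with an Illumina TruSeq kit per the labels' protocols. Per the submitters' processing notes DESeq2 1.10.1, HTSeq 0.6.1, STAR 2.4.1d and Trim Galore were used, with GRCm38 and mm10 named as builds; order of use, annotation, gene lengths and strandedness were not given in the sources used here. Since depth is unknown, no counting interval is given, and a pool of transcripts that grows or shrinks (the mitochondrial share, for instance) shifts the TPM of all other genes.

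Groups came from the sample titles. Values were fitted as log2(TPM + 1) with 4 group means over all 16 libraries in limma 3.58.1 (R 4.3.3, trend and robust empirical Bayes), over the 12960 genes that reached 1 TPM in 4 or more libraries, with Benjamini-Hochberg adjustment and calls at 0.05; the procedure was tested on simulated data. A count model was not used because TPM are not counts. Of 23982 entries, 94 share a symbol with another, none of them a transporter. All 40 transporters matched the GENCODE vM21 annotation of GRCm38, and 34 a RefSeq promoter window. Described library by library were transporters with a group mean of at least 5 TPM or called higher with cisplatin at a mean of at least 1 TPM, together with those called between NMN and NR; others are given by range or mean, except Slc22a29, given by library outside this rule after its values were seen. From the list of related transport genes, those with a group mean of at least 20 TPM could be named. The transporters, lists and motifs were chosen with earlier results of these data known. Alternatives were other scalings, pseudocounts, minimums and fits, each library left out, the replicate number as a block, and, added after seeing the data, PBS 1, cisplatin 1 and cisplatin 3 left out together. Abcc2 and Tmlhe of the list were not analysed here, Map17 is another name of Pdzk1ip1 and was counted once, and some genes counted among the transporters and the list are not reported here by name.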

Additional observations from a re-analysis of the deposited data

Results flagged for a closer look

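In 104 groups of 4 libraries, one for each of the 26 tested transporters in each treatment, a single library stood apart from the other 3 by Dixon's criterion in 5, and chance alone gives about 1 in 20. NMN library 4 was high for 3 genes: Slc22a5 at 97.11 TPM beside 76.67 to 77.8, Slc22a22 at 55.22 beside 34.67 to 36.33, and Slc22a28 at 78 beside 56.69 to 57.8. NMN library 2 was low for Slc22a4, at 15.12 TPM beside 21.82 to 22.63. Cisplatin library 2 was low for Slc22a8, at 5.24 TPM beside 6.49 to 6.72.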

How the results depend on the processing

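Of 2796 values of single transporters under the alternatives, 2710 kept their side of the threshold, 56 lost a call and 30 gained one. Single transporters were not followed with PBS 1, cisplatin 1 and cisplatin 3 left out together. The sign differed in 47, all of them called neither as reported nor under the alternative, with reported changes of at most 0.174 in size. The counts that moved by over 1.5 times were these. Transporters lower than PBS with NMN, 2 as reported, were 0 without the trend and robust options, 1 with median-of-ratios scaling, 1 with quantile normalization, 1 with no minimum, and 0 to 4 with one library left out (0 without any one PBS library or NMN library 1 or 3, 1 without NMN library 2, 4 without NMN library 4). Transporters higher with cisplatin, 4 as reported, were 7 with no minimum, where 37 of the 40 were tested. Transporters higher than PBS with NMN, 3 as reported, were 1 to 3 with one library left out, the 1 without NMN library 3. Transporters lower than PBS with NR, 6 as reported, were 2 to 6, with 3 without PBS library 4 and 2 without NR library 2. Leaving out PBS 1, cisplatin 1 and cisplatin 3 together gave 18 lower and 4 higher with cisplatin. Median-of-ratios scaling moved the calls over all genes with cisplatin from 5278 higher and 2415 lower to 3813 and 3689, and the transporters to 22 lower and 4 higher. The replicate numbers are not stated to pair libraries. The correlation of deviations from the group means was over 0.1 in 9 of 24 same-numbered pairs (median 0.068, range -0.13 to 0.287). A library correlated best with its own number in 16 of 24. Every PBS library did so in the NMN and NR groups, as did every NMN library in the NR group. No PBS library did so in the cisplatin group. Cisplatin libraries 3 and 4 did so in the NMN and NR groups, and cisplatin libraries 1 and 2 did not. The fit as reported did not use the replicate number. With the replicate number as a block, 20 transporters were lower and 4 higher with cisplatin, 3 lower than PBS with NMN and 6 with NR, and 19 and 18 higher than cisplatin with NMN and NR. Depth is unknown and limits the genes under 1 TPM most.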
